A study of Mus musculus with 5 samples.

Results

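The 10 genes described here encode intermediate chains, light chains and docking proteins of dynein, and their RNA was measured in ciliated cells sorted from the embryonic mouse lung. They were taken by name as Dnaic1, Dnaic2, Dnali1, Dnal1, Dnal4, Dynlrb2, Ccdc114, Ccdc151, Armc4 and Ttc25. All 10 had at least 1 probe set (a group of short probes on the array read as 1 value) annotated to that gene alone, and together they had 16 of the 45037 probe sets that are not controls. They are 10 of 18193 genes with a probe set of their own.

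The series holds 1 group, ciliated cells that carried GFP when FOXJ1-GFP embryos were taken at E17.5, and each of its 5 biological replicates was hybridised to 1 Affymetrix mouse array. The embryos came from FOXJ1-GFP mice mated with the outbred ICR strain, and every sample carried the reporter. FOXJ1-GFP is a transgenic line in which the FOXJ1 promoter drives GFP, so the sort depends on where that promoter is active. With no second condition in the group, a gene could be tested only for whether its level was above a background level, and nothing here shows that a gene is particular to ciliated cells.

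Motile cilia beat because dynein arms, attached in rows to the outer doublet microtubules of the axoneme, pull on the neighbouring doublet. An outer arm is built from heavy chains, which are the motors, with intermediate chains that hold the heavy chains together at the base of the arm and light chains that tune them, and a docking complex fixes the arm to the doublet. In the airway the beat moves mucus out of the lung, and in humans loss of several of these proteins causes primary ciliary dyskinesia.

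The promoters of these genes are shown first, because several hold an X-box, the kind of site that RFX transcription factors of ciliated cells bind. A promoter of 250 bases before and 50 bases after the annotated start was found in the RefSeq table (GRCm38.p6) for 8 of the 10 genes, all but Armc4 and Ttc25. The X-box was written as the arm GTTNC followed by its reverse complement GNAAC, with 3 bases between them (a form of 13 bases) or 4 (a form of 14 bases), where N is any base. Both forms are palindromic and so read the same on either strand, and no match to one overlapped a match to the other in these promoters. Both forms were chosen after the promoters had been seen, so the counts are a description. The last 100 bases before the start are printed for the 4 genes that held a match, with the matches in capitals. For Ccdc151 the stretch runs 10 bases past the start, where 1 of its matches lies.

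Dnaic1, chr4:41569694-41569793, + strand: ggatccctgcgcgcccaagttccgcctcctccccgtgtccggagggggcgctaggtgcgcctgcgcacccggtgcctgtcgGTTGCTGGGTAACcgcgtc
Dnaic2, chr11:114727319-114727418, + strand: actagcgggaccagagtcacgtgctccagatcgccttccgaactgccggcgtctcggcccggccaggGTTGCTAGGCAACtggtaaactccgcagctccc
Dynlrb2, chr8:116504915-116505014, + strand: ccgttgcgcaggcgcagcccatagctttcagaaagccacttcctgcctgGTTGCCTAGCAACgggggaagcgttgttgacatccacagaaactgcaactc
Ccdc151, chr9:22002625-22002734, - strand: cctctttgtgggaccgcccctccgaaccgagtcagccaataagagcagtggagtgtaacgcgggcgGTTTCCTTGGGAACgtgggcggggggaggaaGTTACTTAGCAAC

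The form of 13 bases was present in 4 of the 8 promoters, against 319 of all 32851 promoters in the table (0.971%). Counted from the annotated start, it began at base -19 in Dnaic1, -33 in Dnaic2, -51 in Dynlrb2 and -3 in Ccdc151. The form of 14 bases was present in Ccdc151 alone among the 8, from -34 to -21, and in 338 of all promoters (1.03%). The forkhead cores GTAAACA and ATAAACA, read on both strands, were in 0 of the 8 promoters and in 3.65% and 4.60% of all promoters. A match says only that these letters are in the window, and no binding was measured.

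**Figure D1:**
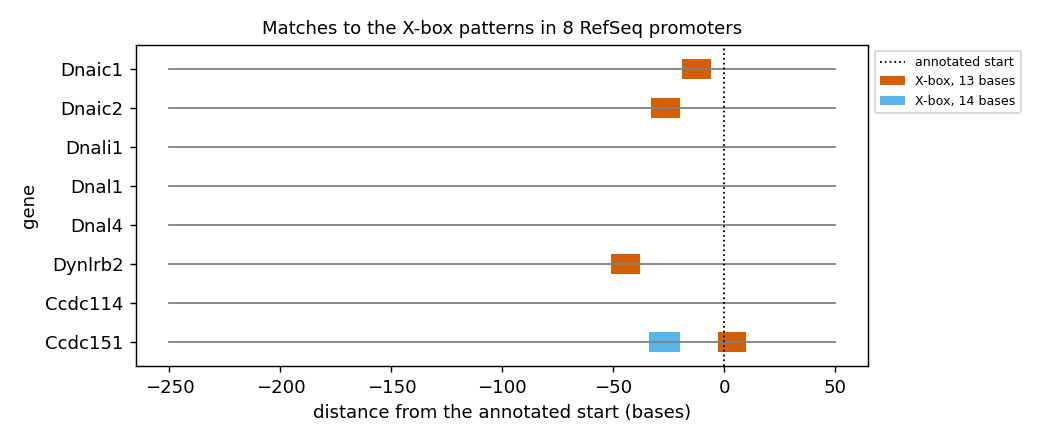
Places of the X-box matches in the 8 promoters, 1 line per gene, with the distance from the annotated start in bases on the horizontal axis. Orange marks the form of 13 bases, in Dnaic1, Dnaic2, Dynlrb2 and Ccdc151, and blue the form of 14 bases, in Ccdc151; the dotted line is the annotated start.

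The sorted cells held RNA of markers of ciliated cells and also of markers of other lung cell types. A marker above background does not by itself show that its cell type was present. Foxj1, the transcription factor whose promoter drives the reporter, had a log2 signal of 12.82 ± 0.08 (SD, n = 5 arrays), and 8 of 8 measured ciliated cell markers were above background. So were 7 of 7 markers of alveolar type 2 cells, 6 of 6 of alveolar type 1 cells, 8 of 8 endothelial, 8 of 8 mesenchymal, 5 of 5 neuroendocrine, 5 of 8 club and goblet, 2 of 6 basal, 4 of 8 white blood cell and 1 of 5 red blood cell markers. By the same rule 65.1% of all named genes were above background. The median level was 13.67 for the ciliated cell markers and 12.09 and 12.04 for alveolar type 1 and type 2 markers. For every other list of markers it was at most 11.38. The brightest club and goblet and alveolar type 2 markers, at 14.27 and 14.06, read higher than Foxj1. The part that other cells had in the signal of the dynein genes was not tested. In a bulk sample, fewer cells of a type and less RNA per cell cannot be told apart. The labels call the arrays biological replicates and do not name litters, and each p-value below rests on these 5 samples alone.

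All 10 dynein chain and docking genes were above background. The background level was 7.05 on the log2 scale of the arrays, the 95th percentile over the mean levels of 146 genes not thought to be active in these cells (olfactory, vomeronasal and taste receptors and genes of other organs). Each gene was taken by its probe set with the highest mean and tested with limma, one-sided, with Benjamini-Hochberg adjustment over all 45037 probe sets. The test draws the spread of each probe set toward that of all probe sets. It takes the background level as fixed, though other choices of background put that level between 5.43 and 9.42. Of all named genes 65.1% were above background by this rule. All 10 were also above a lower fixed level of 5, as were 81.3% of all named genes. The study chose genes by a cut-off on average expression together with a fold change between stages, which is another quantity than the mean of the E17.5 arrays tested here. The distance from background lay between 2.39 for Dnaic2 (adjusted p = 3.41e-09, limma) and 6.92 for Dynlrb2 (adjusted p = 4.26e-11), where 1 unit is a doubling of signal. Probe sets also differ in brightness for reasons of sequence, so the distances are a range and not an order of the genes.

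**Figure D2:**
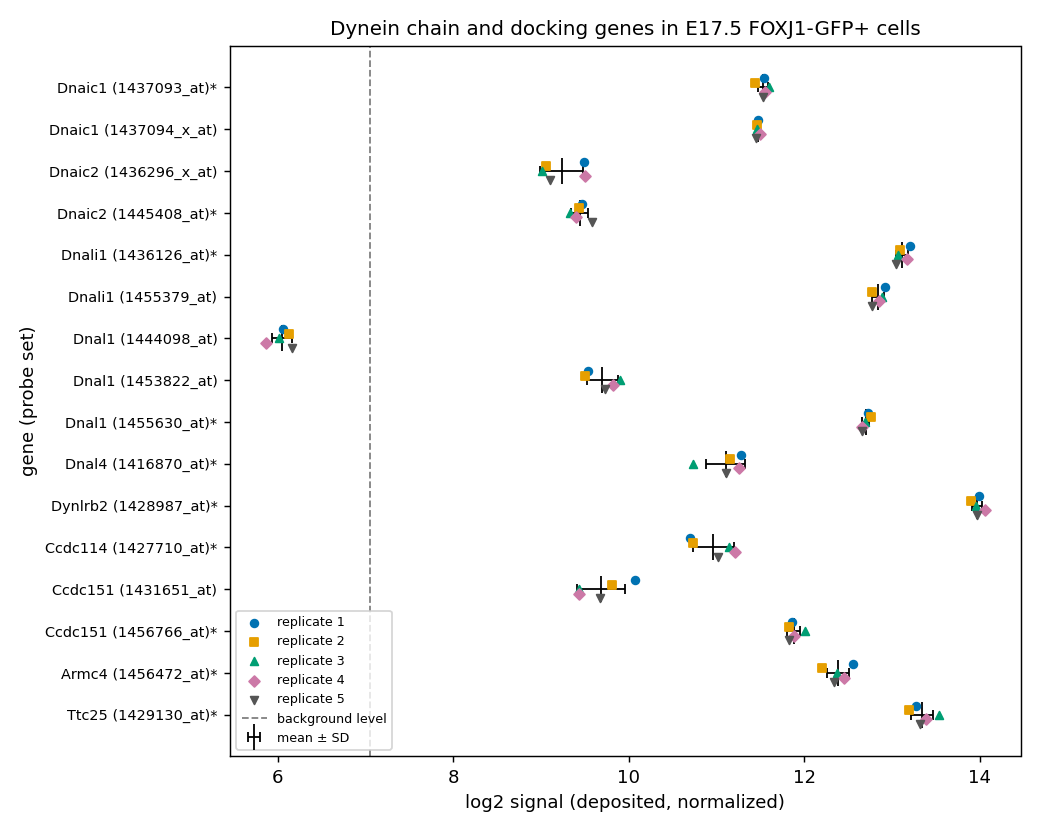
Log2 signal of the 16 probe sets of the 10 genes on the 5 arrays, 1 symbol per replicate, with the mean ± SD in black and the background level of 7.05 as a dashed line. The probe set that stands for its gene has an asterisk; 15 of 16 probe sets lie above the line on every array and Dnal1 1444098_at lies below it.

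The intermediate chains Dnaic1 and Dnaic2, WD-repeat proteins that join the heavy chains at the base of the outer arm, were both above background. Dnaic1 had log2 signals of 11.54, 11.44, 11.60, 11.55 and 11.53 in replicates 1 to 5, a mean of 11.53 ± 0.06 (SD, n = 5 arrays). Its other probe set (1437094_x_at) read 11.47 ± 0.02. The 5 arrays thus spanned 0.16 by the first of these probe sets and 0.05 by the second.

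Dnaic2 had log2 signals of 9.47, 9.43, 9.33, 9.40 and 9.58, a mean of 9.44 ± 0.09 (SD, n = 5 arrays). At a stricter level of 9.42, the 99th percentile of those 146 genes, Dnaic2 was the 1 gene of the 10 that was no longer above it (0.02 over it, adjusted p = 1.0, limma). That stricter level was also passed by 43.1% of all named genes. Its other probe set (1436296_x_at) read 9.49, 9.06, 9.01, 9.50 and 9.11, a mean of 9.23 ± 0.24, with replicates 1 and 4 above the other 3.

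Dnali1, a light intermediate chain known from inner arms, and the light chains Dnal1, Dnal4 and Dynlrb2 were above background as well. Dnali1 had log2 signals of 13.21, 13.09, 13.07, 13.17 and 13.05, a mean of 13.12 ± 0.07 (SD, n = 5 arrays), and its other probe set (1455379_at) a mean of 12.84 ± 0.07. Replicate 1 was highest and replicate 5 lowest on both probe sets. Dynlrb2, a light chain of the roadblock family, had log2 signals from 13.90 in replicate 2 to 14.05 in replicate 4, a mean of 13.97 ± 0.06 (SD, n = 5 arrays). Dynlrb1, its close relative in the list of shared light chains, read 12.47 ± 0.10 on a probe set of its own.

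Dnal1, the light chain that in Chlamydomonas binds the motor region of an outer arm heavy chain, was measured by probe sets that differed widely. The probe set with the highest mean (1455630_at) read 12.73, 12.76, 12.69, 12.66 and 12.66, a mean of 12.70 ± 0.04 (SD, n = 5 arrays). The probe set 1453822_at had a mean of 9.70 ± 0.18 and lay on the other side of its own mean on 5 of 5 arrays, that is on the same side on 0. The third (1444098_at), at 6.05 ± 0.11, was the 1 of 16 probe sets that did not pass the test (-1.0 from the background level, adjusted p = 1.0, limma). The test was passed by 15 of the 16 probe sets, against 56.6% of all probe sets annotated to 1 gene.

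Dnal4, a light chain related to the LC8 family, had log2 signals of 11.28, 11.15, 10.73, 11.25 and 11.10, a mean of 11.11 ± 0.22 (SD, n = 5 arrays). Replicate 3 was the lowest, and the other 4 arrays lay between 11.10 and 11.28. In replicate 3 the endothelial and mesenchymal markers lay 0.40 and 0.30 over their own means, averaged over the 8 markers of each list, and their part in the low value of Dnal4 was not tested.

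The docking complex genes Ccdc114, Ccdc151, Armc4 and Ttc25 encode coiled-coil, armadillo-repeat and tetratricopeptide-repeat proteins that anchor the outer arm to the doublet. Ttc25 had log2 signals of 13.28, 13.19, 13.53, 13.39 and 13.32, a mean of 13.34 ± 0.13 (SD, n = 5 arrays), and Armc4 had 12.56, 12.21, 12.37, 12.45 and 12.34, a mean of 12.38 ± 0.13. Replicate 2 was the lowest array for both. Ccdc151 read 11.86, 11.82, 12.01, 11.88 and 11.83, a mean of 11.88 ± 0.08, by its brighter probe set (1456766_at). Its other probe set (1431651_at) read 10.07, 9.81, 9.43, 9.44 and 9.67, a mean of 9.68 ± 0.27. Replicate 3 was the highest array on the first of these and the lowest on the second, and both probe sets lay on the same side of their means on 1 of 5 arrays.

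Ccdc114 had the largest SD of the 10 genes when each was taken by its brightest probe set, although Dnal4 spanned a wider range (0.55, against 0.52 for Ccdc114) and the dimmer probe sets of Ccdc151 and Dnaic2 had larger SDs. Its log2 signals were 10.70, 10.74, 11.15, 11.22 and 11.02 in replicates 1 to 5, a mean of 10.96 ± 0.24 (SD, n = 5 arrays). Replicates 1 and 2 were the lowest, at 10.70 and 10.74, and the other 3 lay between 11.02 and 11.22. White blood cell markers deviated by -0.50, -0.27, 0.16, 0.29 and 0.31 from their means on the same arrays, averaged over the 4 of 8 above background. This list was taken from the marker lists for its likeness to Ccdc114. Of the 4, Csf1r, Cd52 and Laptm5 were lowest in replicates 1 and 2. Cd68 was not, at 8.35 in replicate 2 and 8.12 in replicate 3. Of that list Ptprc, which marks all white blood cells, read 7.33 and was not above background. The part of these cells in the values of Ccdc114 was not tested.

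The genes whose pattern over the 5 arrays was most like that of Ccdc114 were Cdiptos, Trim11, Eml3, Ccdc180 and Sppl2b. Likeness was the mean absolute difference between the deviations of the 2 genes from their own means, over 5 arrays, among 4555 genes above background whose SD was at least 0.8 of that of Ccdc114. It was 0.01 for Cdiptos, Trim11 and Eml3 and 0.02 for Ccdc180 and Sppl2b. Ccdc180 read 12.58, 12.62, 13.04, 13.06 and 12.88. The pattern was common, with 570 of the 4555 genes within 0.1 of Ccdc114. Pearson's r across probe sets was 0.9944 for replicates 1 and 2 and 0.9943 for replicates 4 and 5. It was 0.9926 for replicate 3 with either of replicates 4 and 5. Every pair of replicate 1 or 2 with replicate 3, 4 or 5 had a lower r, between 0.9866 and 0.9921. The lowest r of any pair of arrays was 0.987.

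By their brightest probe sets, the SD of the 10 genes between the replicate sorts had a median of 0.08, and ranged from 0.04 for Dnal1 to 0.24 for Ccdc114. The median was 0.16 for all 11840 named genes above background and 0.14 for the 8211 of them with means in the range of the 10. For genes above background in other lists the median was 0.07 for ciliated cell markers and 0.08 for shared light chains. It was 0.11 both for assembly factors and for cytoplasmic and transport dynein. Other docking genes, outer arm heavy chains and inner arm chains had larger medians of 0.15, 0.19 and 0.26. Once each gene's probe sets were averaged, the median was 0.12 for the 10 genes, 0.12 for assembly factors, 0.10 for shared light chains, 0.07 for ciliated cell markers and 0.16 for all 10605 named genes then above background. None of these differences was tested. The mean deviation of the 10 genes was 0.02 in replicate 1, -0.07 in replicate 2 and 0.06 in replicate 4, and was nearest 0 in replicates 3 and 5, a range of 0.128. Replicate 2 was the lowest array for 5 of the 10 genes, and without it the range was 0.0627. The range was 0.0800 for shared light chains, 0.0847 for cytoplasmic and transport dynein, 0.101 for ciliated cell markers, 0.143 for assembly factors, 0.202 for other docking genes, 0.276 for outer arm heavy chains and 0.421 for inner arm chains. It was 0.05 for all named genes above background, where opposite deviations cancel, and between 0.253 and 1.23 for the markers of other cell types.

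**Figure D3:**
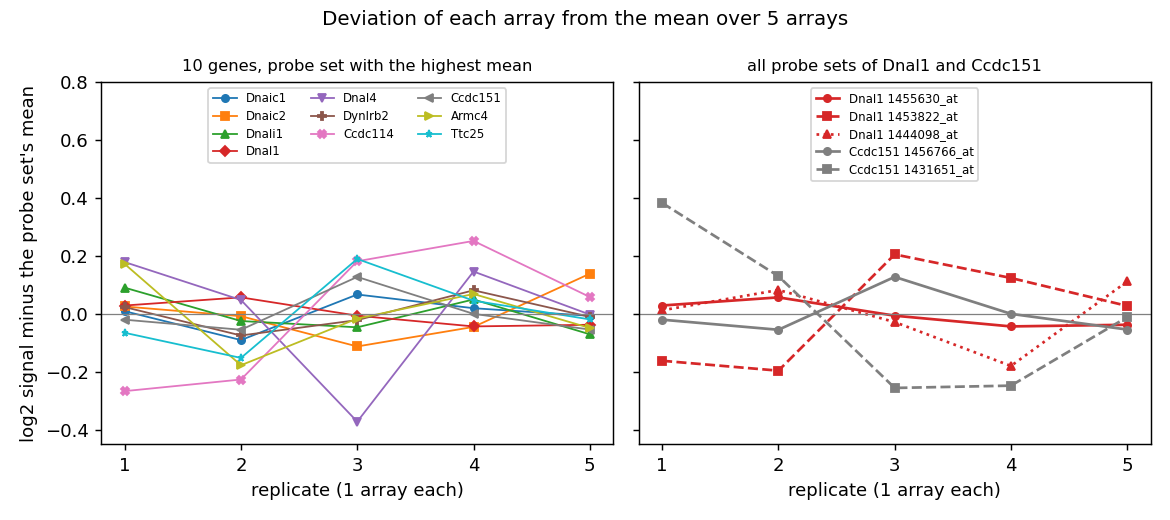
Deviation of each array from the probe set's mean over the 5 arrays, in log2 units, for the 10 genes by their brightest probe set (left) and for all probe sets of Dnal1 and Ccdc151 (right). Lines join the values of 1 probe set and the order of replicates has no meaning; Ccdc114 is low in replicates 1 and 2, Dnal4 is low in replicate 3, and the dashed probe sets of Dnal1 and Ccdc151 depart from the solid ones.

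Genes of the same arms and of their assembly were mostly above background too. The exceptions were Dnah17, Ccdc63, Nme8, Pih1d3 and Dync1i1, and why they read low was not tested. Of 5 outer arm heavy chains 4 were above background, Dnah5 at 10.04 ± 0.69, Dnah9 at 12.71 ± 0.11, Dnah11 at 11.93 ± 0.11 and Dnah8, known chiefly from sperm, at 11.73 ± 0.27 (SD, n = 5 arrays), and Dnah17, a heavy chain of the sperm tail, at 4.54 ± 0.11 was not. Dnah5 read 10.85, 10.69, 9.24, 9.74 and 9.69, so that replicates 1 and 2, the lowest for Ccdc114, were its highest. Dnah8 read 11.49, 11.42, 11.78, 11.90 and 12.05, with the same arrays lowest.

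Of 5 genes listed as other docking genes, not all of them parts of the docking complex, 4 were above background. Efcab1, at 13.17 ± 0.16, encodes calaxin, a calcium-binding partner of the docking complex. Mns1, a filament protein of the axoneme, was at 13.16 ± 0.14. Ccdc63, a paralog of Ccdc114 known from sperm, was not above background (4.84 ± 0.06, SD, n = 5 arrays). Ccdc183 was only 0.61 over background, at 7.66 ± 0.25. All 5 inner arm intermediate and light chains of the list were above background. Wdr63 was at 13.10 ± 0.26, Wdr78 at 12.01 ± 0.11 and Tctex1d2 at 13.18 ± 0.26, and the dimmest, Tctex1d1, was 0.72 over background at 7.77 ± 0.40. At the stricter level of 9.42, 4 of these 5 and 3 of the 5 other docking genes were above it. Of 6 measured light chains that are shared with cytoplasmic dynein or hold a thioredoxin domain, 5 were above background, among them Dynll1 at 14.42 ± 0.07 and Dynll2 at 12.06 ± 0.11, and Nme8, a thioredoxin-domain protein, at 4.69 ± 0.38 was not.

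Of 15 measured assembly factors, which build dynein arms in the cytoplasm before they enter the cilium, 14 were above background, with Dnaaf1 at 12.23 ± 0.14, Dnaaf2 at 11.54 ± 0.23 and Lrrc6 at 11.65 ± 0.10 (SD, n = 5 arrays). The factor Pih1d3, listed on the array as Dnaaf6, at 4.03 ± 0.27 was not. Of 9 chains of cytoplasmic dynein and of the dynein of intraflagellar transport 8 were, among them Dync1h1 at 11.70 ± 0.10, the heavy chain of cytoplasmic dynein, and the exception was its intermediate chain Dync1i1, known chiefly from neurons, at 3.83 ± 0.14, while Dync1i2 read 11.84 ± 0.12. These counts are to be read beside the 65.1% of all named genes. Of genes with a promoter in the table, the X-box form of 13 bases was in 1 of 5 heavy chains and 1 of 13 assembly factors, and in 0 of 4 inner arm chains, 0 of 7 shared light chains, 0 of 3 other docking genes and 0 of 7 chains of cytoplasmic and transport dynein. The form of 14 bases, found in 1 of the 8 promoters above, was in 3 of 13 assembly factors, 1 of 3 other docking genes and 0 genes of the other 4 lists.

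**Figure D4:**
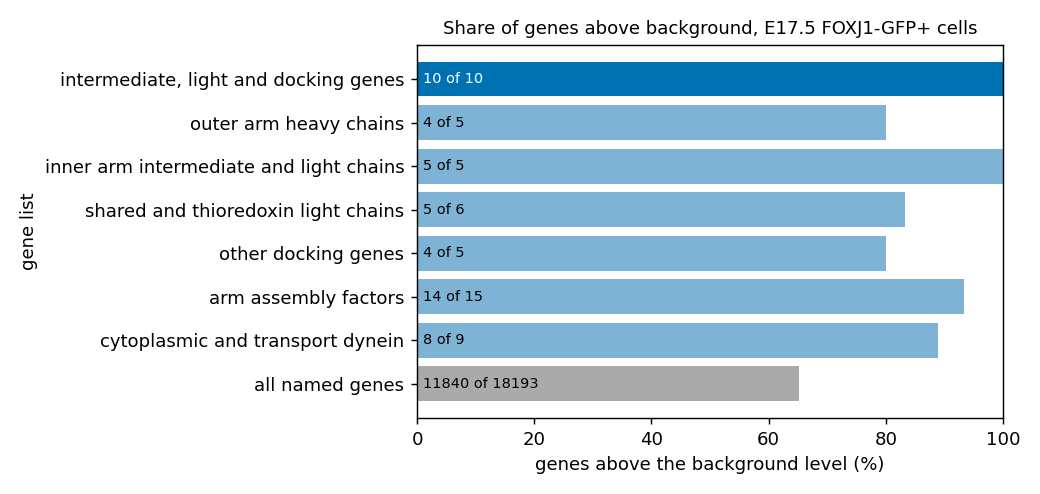
Share of genes above the background level in the intermediate, light and docking list and 6 lists of related dynein genes, with all named genes below, in percent. Numbers in the bars give the genes above background of those measured; the 10 genes reach 10 of 10 and all named genes 65.1%.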

How the data were processed

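RNA of the sorted E17.5 lung cells was amplified, labelled with biotin and hybridised to 5 Affymetrix arrays, 1 per replicate. The values deposited by the authors were taken as log2, from their range (2.37 to 15.24), and had near-equal quantiles on all arrays. The sources used here do not name the normalization method. Genes were not centred, and no value was missing.

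Gene names came from the annotation of the platform. Probe sets with several genes (932) or none (9160) were left out of gene counts. An intercept was fitted with lmFit and eBayes of limma 3.58.1 (R 4.3.3) and tested one-sided against the level, at an adjusted p under 0.05. Of the 146 background genes 5 were themselves called, the highest at 11.15. The level test was run on simulated data with another fixed level, so that run cannot test the choice of background. It called 4.0% of 200 probe sets set at the level and 71.5% of 200 set 0.25 over it. Python 3.11.15 was used for the rest. The number of arrays limits the precision.

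Genes named are the 10, Foxj1 as a check of the label, the first 3 of each list described and the exceptions to its call, and the 5 most like Ccdc114. Marker lists were given by counts, levels and deviations without naming genes, apart from Ptprc, Cd68, Csf1r, Cd52 and Laptm5 of the white blood cell list. Dnah8, Tctex1d1 and Ccdc183, outside this rule, were chosen after their values were seen. The members and lists were chosen with earlier results of these data known. Alternatives were other probe set choices, normalizations, calls and background levels, and each replicate left out.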

Additional observations from a re-analysis of the deposited data

How the results depend on the processing

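All 10 genes were above background under 12 of 13 alternatives, and 9 were at the stricter level of the 99th percentile, where Dnaic2 was lost. Of all named genes 7837 were above that level, against 11840, and between 11769 and 11873 without 1 replicate. The range of the mean deviation was between 0.0627 and 0.128 without 1 replicate, lowest without replicate 2. Of 130 single-gene values 129 kept direction and call. Counts of the 6 related lists, recomputed as an alternative chosen after seeing the data, moved by over 1.5 times in 1 of 78, where only probe sets without a suffix were used and 3 of 4 shared light chains were above background. No paired analysis was possible because the series has 1 group. By Dixon's test, with a critical ratio of 0.71, no array was called an outlier in any of the 16 probe sets (0 of 16). Ratios of 0.699 for Ccdc151 (1456766_at) and 0.671 for Dnal4 lay just under it. With 5 arrays the test cannot show that no array differed.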
